A study of Mus musculus with 24 samples.

Results

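The mitochondrial chromosome of the mouse carries 37 genes: 13 mRNAs for proteins of the respiratory chain, the 2 ribosomal RNAs (rRNAs) of the mitochondrial ribosome and 22 transfer RNAs (tRNAs). They were taken as every row of the deposited count table whose gene symbol starts with mt-, which gave 37 of 49585 rows. The counts come from 24 single cells sorted as burst-forming units-erythroid (BFU-E), the earliest progenitors committed to the red cell lineage, from fetal liver of C57/Bl6J mice at embryonic day 14.5. No genotype or treatment other than the strain is given, and the cells form 1 group. The liver suspension had been freed of red cells by lysis and of cells bearing Ter119, CD11b, Ly-6G, CD45R, CD3e, CD41, CD16/32 or Sca-1 by magnetic beads, and the rest was stained for CD117, CD71 and CD24 before sorting into wells of 3 plate columns with 8 cells each. Libraries were made by Smart-seq2, which primes reverse transcription on poly(A) with oligo-dT, copies transcripts along their length, amplifies by PCR without molecular identifiers and keeps no strand information.

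Both strands of the mitochondrial chromosome are transcribed into long precursors. The tRNAs lie between the rRNAs and mRNAs, and cutting the precursors at the tRNAs releases the single RNAs, most of which then receive a short poly(A) tail. The proteins form the core of complexes I, III, IV and V, whose other subunits come from nuclear genes. Red cell precursors depend on mitochondria for haem and for iron-sulfur clusters, and red cells remove the organelle as they mature.

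Total counts per cell ran from 876983 to 2155010, so a count of 0 allows up to 3 counts, or 1.39 to 3.42 counts per 1000000 counts (CPM). Detection of a gene in a cell was set at 5 counts. No embryo is named for any cell, so the 24 cells are not replicates of a condition: spreads are SDs over cells, and no p-value was made from them. All 6 erythroid progenitor markers had counts, with Kit and Myb detected in 24 cells, Gata1 and Klf1 in 20, and Epor and Tfrc in 18. Elane of granulocytes, Pf4 of megakaryocytes, and C1qa and Adgre1 of macrophages were at 0 in every cell. The other megakaryocyte marker, Itga2b, which encodes the depleted antigen CD41, was detected in 16 cells, at up to 542 CPM. In 5 cells (1, 9, 19, 23 and 24, as numbered in their titles) the erythroid transcription factor Klf1 stayed under 10 CPM, a limit chosen after its values were seen. The summed level of the 3 granulocyte or monocyte markers, from Mpo and Prtn3, ran from 107 to 8418 CPM in these 5 cells and from 0 to 319.6 CPM in the other 19. Cell 10 stood apart with 692 CPM of the hepatocyte markers Alb and Afp, against a median of 10.3 CPM over all cells.

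Part of the mitochondrial chromosome has a near-exact copy in the nuclear genome, and this copy bears on which members can be read from the table. On GRCm38 the stretch chrM:6390-11042, 4653 bases long, was matched by 7 annotated pseudogene rows in a row on the minus strand of chromosome 1. From one row to the next, the spacing was the same on both chromosomes (140, 233, 2 and 72 bases) up to mt-Nd3, and then differed by a single base, 73 on the mitochondrial chromosome and 74 on chromosome 1. The aligned parts of mt-Co2 (681 bases, against Gm28661), mt-Atp6 (678, Gm10925), mt-Co3 (783, Gm28437), mt-Nd3 (342, Gm28438), mt-Nd4l (294, Gm10222) and mt-Nd4 (bases 1 to 876, Gm28439) held 0 mismatches. The part of mt-Co1 from base 1063 to its end at base 1545 matched Gm29216 with 1 mismatch, A1066T, counted from 1 at the first base of mt-Co1 and with the mitochondrial base first. These alignments were local, which leaves out ends that do not match. Of Gm28438 342 of 345 bases were aligned, of Gm29216 483 of 492, and the other chromosome 1 copies were aligned whole. Another set of copies on chromosome 2 was less alike: Gm13340 carried 37 mismatches over the 1545 bases of mt-Co1, an identity of 97.6%, and Gm13341 carried 16 mismatches and 12 gapped bases against mt-Co2, an identity of 95.9%.

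The start of the copied stretch in mt-Co1 shows how little separates the mitochondrial gene from the chromosome 1 copy, and how the chromosome 2 copy differs. Shown are 120 bases from base 1063 of mt-Co1 (chrM:6390-6509, plus strand), of Gm29216 (chr1:24616069-24616188, minus strand) and of Gm13340 (chr2:22588466-22588585, minus strand), from the GENCODE M21 transcripts on GRCm38. Capitals mark the bases at which a copy differs from mt-Co1, and in mt-Co1 the bases at which either copy differs from it.
mt-Co1: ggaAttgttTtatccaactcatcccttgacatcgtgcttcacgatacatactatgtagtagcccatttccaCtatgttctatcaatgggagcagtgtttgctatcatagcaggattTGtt
Gm29216: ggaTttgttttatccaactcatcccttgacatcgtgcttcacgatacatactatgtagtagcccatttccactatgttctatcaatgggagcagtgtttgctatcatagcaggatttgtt
Gm13340: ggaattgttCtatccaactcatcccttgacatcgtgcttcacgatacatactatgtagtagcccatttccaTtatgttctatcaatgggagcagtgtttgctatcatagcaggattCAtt
In this window Gm13340 differs from mt-Co1 by T1072C, C1134T, T1179C and G1180A, and Gm29216 by A1066T alone.

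The first 120 bases of mt-Co2 (chrM:7013-7132, plus strand) and of its copy Gm28661 (chr1:24615446-24615565, minus strand) carry no difference, so a read from either would be spelled the same.
mt-Co2: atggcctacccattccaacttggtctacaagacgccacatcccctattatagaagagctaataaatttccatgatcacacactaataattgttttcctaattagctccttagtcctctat
Gm28661: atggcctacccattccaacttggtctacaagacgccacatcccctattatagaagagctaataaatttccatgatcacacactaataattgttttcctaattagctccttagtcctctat
Over all start positions, 100% of the 50-base fragments of mt-Co2 occurred in an annotated nuclear transcript, as did 99.9% of those of mt-Co3, 99.5% of mt-Atp6, 98.8% of mt-Nd4l, 98.0% of mt-Nd3, 62.2% of mt-Nd4 and 51.1% of mt-Co1. The share was 8.19% for mt-Nd2, 7.61% for mt-Nd5 and 1.04% for mt-Rnr2, and no fragment of mt-Rnr1, mt-Nd1, mt-Nd6, mt-Cytb or mt-Atp8 was shared. The gene mt-Atp8 lies within the stretch. Its last 43 bases, which overlap mt-Atp6, match Gm10925 but are too few to hold a 50-base fragment. Its other bases fall between Gm28661 and Gm10925, where no annotated nuclear transcript could be compared. The treatment of reads that match several places is not given in the sources used.

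The members took 3.55% ± 0.673 of all counts (mean ± SD over 24 cells), with a median of 3.59%. The lowest share was 2.18% in cell 4 (exact binomial 95% interval 2.16% to 2.20%) and the highest 4.92% in cell 19 (4.89% to 4.96%), a 2.26-fold range. Intervals and floors cover counting error only, since PCR copies are not independent molecules. The 13 mRNAs made up 2.19% ± 0.365 of counts, the 2 rRNAs 1.36% ± 0.350 and the 22 tRNAs 0.00568% ± 0.00201. By plate column the share was 3.30% ± 0.835, 3.65% ± 0.423 and 3.70% ± 0.709 over 8 cells each, and these ranges overlapped. The 5 cells under 10 CPM of Klf1 had shares of 3.15%, 4.35%, 4.92%, 4.25% and 3.35%, against 2.18% to 4.50% with a median of 3.58% in the other 19. The ranges overlapped here too, and the mean without the 5 cells was 3.43%.

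**Figure D1:**
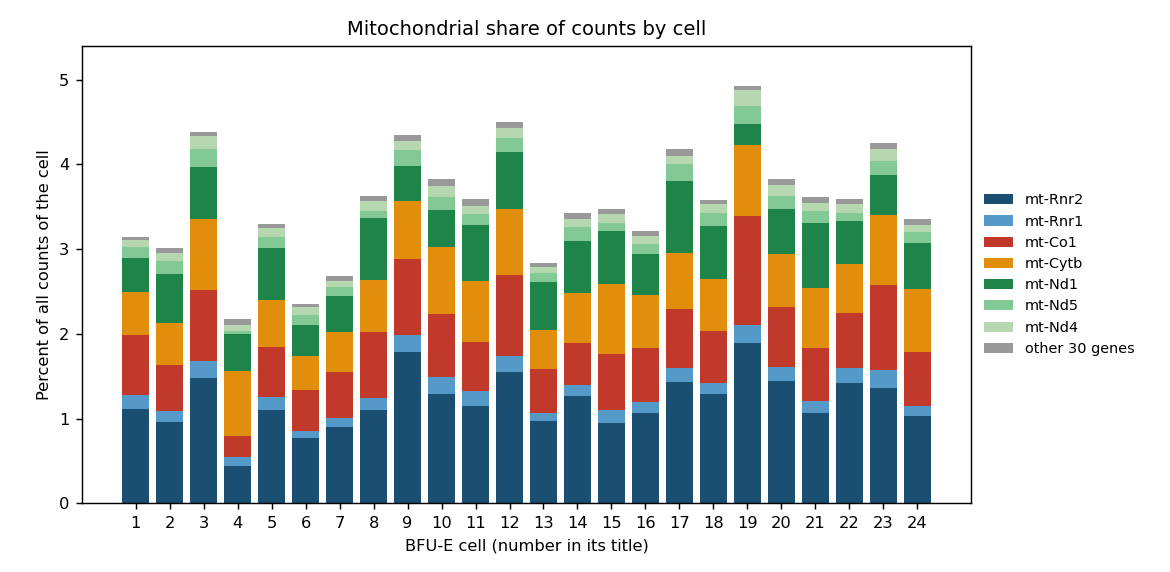
Percent of all counts of each BFU-E cell (vertical axis) that fell on the mitochondrially encoded genes, for the 24 cells numbered as in their titles (horizontal axis), with 7 abundant genes as coloured segments and the other 30 genes in grey. Cell 4 has the shortest bar at 2.18% and cell 19 the tallest at 4.92%, and mt-Rnr2 is the largest segment in every cell except cell 4, where mt-Cytb is.

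Of the 37 members, 15 were detected in at least 12 cells: both rRNAs, 6 of 7 mRNAs for complex I, the only mRNA for complex III, 3 of 3 for complex IV, 1 of 2 for complex V and 2 of 22 tRNAs. In all 24 cells 12 were detected. Levels of different genes are compared below as CPM per kilobase of gene length, because reads are spread along the transcript.

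The 16S rRNA of the large mitochondrial ribosomal subunit, mt-Rnr2 (chrM:1094-2675), led with 4418 CPM at the lowest, 11337 at the median and 18888 at the highest. Its lowest value was in cell 4 and its highest in cell 19. The 12S rRNA of the small subunit, mt-Rnr1 (chrM:70-1024), ran from 845 to 2205 CPM with a median of 1487. Both are cut from neighbouring places of the same precursor, yet per kilobase mt-Rnr2 averaged 7599.7 ± 2018 CPM and mt-Rnr1 1602 ± 397. The ratio of their counts was 7.93 ± 1.39 and ran from 4.42 in cell 4 to 10.2 in cell 13. By mean CPM per kilobase mt-Rnr2 ranked 2 of 49326 genes, behind a row annotated as nuclear rRNA, and mt-Rnr1 ranked 15.

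Complex I, which takes electrons from NADH, has 7 mitochondrially encoded subunits, and their rows differed widely. The highest was mt-Nd1 (chrM:2751-3707), with 2513 CPM at the lowest in cell 19, 5547 at the median and 8488 at the highest in cell 17. Next came mt-Nd5 (402, 1434 and 2109 CPM at the lowest, median and highest) and mt-Nd4 (700, 1011 and 1878 CPM). Per kilobase mt-Nd1 averaged 5735 ± 1445 CPM, mt-Nd5 769.6 ± 234 and mt-Nd4 762 ± 201, so by this measure the means of mt-Nd5 and mt-Nd4 lay close together. Divided by the start positions of 50-base fragments that are a gene's own, mt-Nd4 had 2093 CPM per 1000 positions and mt-Nd5 856. The gene mt-Nd2 ran from 107 to 647 CPM with a median of 401, or 378 ± 133 CPM per kilobase. The only mRNA on the minus strand, mt-Nd6 (chrM:13552-14070), ran from 47.2 to 258 CPM with a median of 124. It averaged 260 ± 109.5 CPM per kilobase, below the mean of mt-Nd2. Without strand, reads of mt-Nd6 and of plus-strand RNA across it cannot be told apart, and its last 14 bases overlap mt-Nd5. The remaining subunits lie within the copied stretch: mt-Nd3 had 4.93, 13.2 and 30.6 CPM at the lowest, median and highest (42.5 ± 18.5 per kilobase), and mt-Nd4l had 15 counts over all cells, a highest value of 2.28 CPM and 5 counts in no cell. The values of mt-Nd3 and mt-Nd4l are therefore uncertain, and so is that of mt-Nd4, 62.2% of whose fragments are shared.

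Complex III passes electrons to cytochrome c, and its only mitochondrially encoded subunit is cytochrome b, mt-Cytb (chrM:14145-15288). It ran from 3990.2 CPM in cell 6 to 8445 in cell 3 with a median of 6467, the narrowest range of the abundant members at 2.12-fold. Per kilobase it averaged 5727 ± 1144 CPM, beside 5735 ± 1445 for mt-Nd1. These SDs are over cells and do not use that both genes were read in the same cells. Cell by cell, the ratio of mt-Nd1 to mt-Cytb counts ran from 0.300 to 1.28.

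Complex IV, the oxidase that hands electrons to oxygen, has its catalytic core in mt-Co1 (chrM:5328-6872), with 2551 CPM at the lowest in cell 4, 6464 at the median and 12890.2 at the highest in cell 19. The other core subunits were read at far lower levels. The row of mt-Co2 (chrM:7013-7696) held 128 counts over all 24 cells, from 0 to 6.54 CPM with a median of 3.18, and mt-Co3 (chrM:8607-9390) held 169 counts, from 1.15 to 13.3 CPM with a median of 4.31. Per kilobase mt-Co1 averaged 4431 ± 1336 CPM, mt-Co2 4.93 ± 2.11 and mt-Co3 5.98 ± 3.10. Both low rows lie within the stretch copied on chromosome 1, and mt-Co1 lies partly within it. The part of this copy in the low rows was not tested. The row of Gm28661, which spells the same bases as mt-Co2, held 118 counts, and Gm28437, which matches mt-Co3, held 314 counts and was detected in 23 cells.

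Complex V, the ATP synthase, has its proton channel subunit in mt-Atp6 (chrM:7927-8607) and a small membrane subunit in mt-Atp8 (chrM:7766-7969), which overlap by 43 bases. The row of mt-Atp6 held 133 counts, with 1.23, 3.59 and 6.56 CPM at the lowest, median and highest, and was detected in 15 cells. The row of mt-Atp8 held 43 counts, from 0 to 3.24 CPM with a median of 0.757, and was detected in 3 cells. Per kilobase they averaged 5.47 ± 2.14 and 5.37 ± 5.22 CPM. The copy Gm10925 of mt-Atp6 held 174 counts and was detected in 19 cells.

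**Figure D2:**
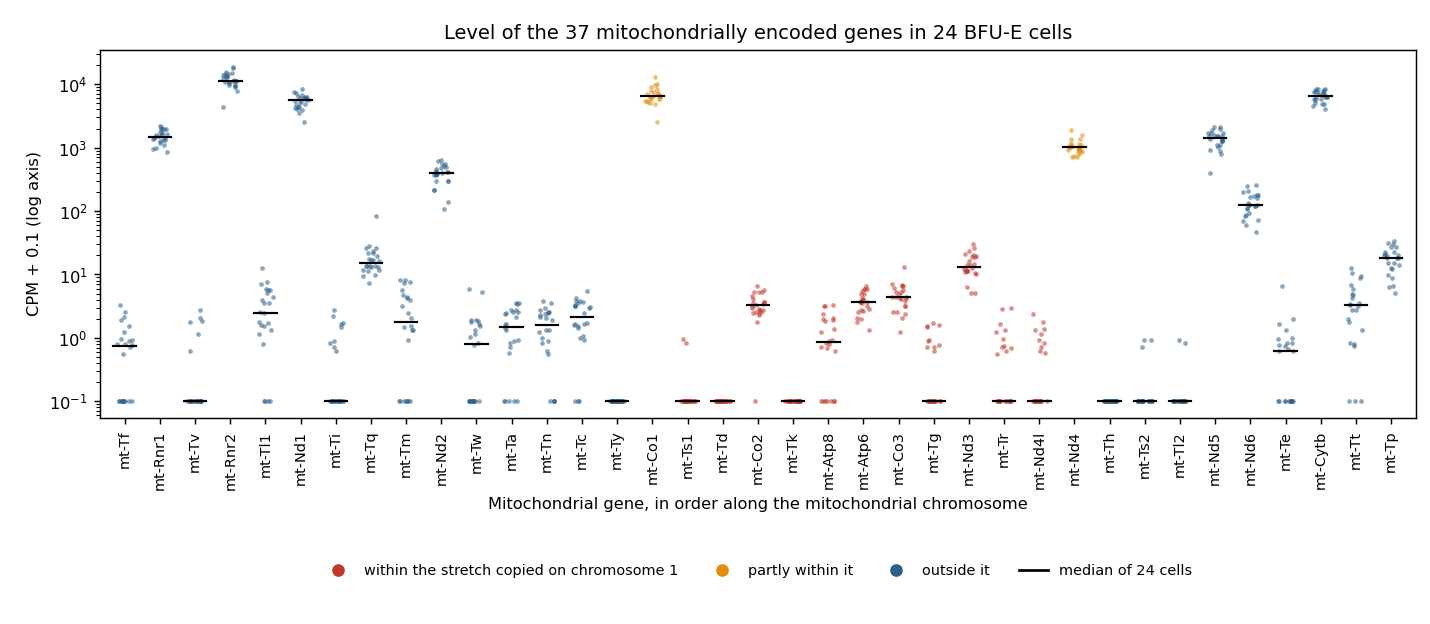
CPM + 0.1 on a log axis (vertical) of each of the 37 mitochondrially encoded genes in the order of the chromosome (horizontal), with a point for each of the 24 cells and a bar at the median. Colours mark genes within, partly within and outside the stretch copied on chromosome 1. The genes between mt-Ts1 and mt-Nd4l have medians of at most 13.2 CPM, while the mRNAs and rRNAs on either side have medians of 124 to 11337 CPM.

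Among the 15 rRNAs and mRNAs, those within the copied stretch lay below all the others. The 6 within it (mt-Co2, mt-Atp8, mt-Atp6, mt-Co3, mt-Nd3 and mt-Nd4l) averaged 1.50 to 42.5 CPM per kilobase and held 1010 counts over all cells. The 2 partly within it (mt-Co1 and mt-Nd4) averaged 762 to 4431, and the 7 outside it 260 to 7599.7 CPM per kilobase, a range that holds both of the partly copied genes. Together with 5 tRNAs, the members within the stretch make up 21.6% of the length of the 37 genes and hold 0.0827% of their counts. The counts of the 7 chromosome 1 rows summed to 785 over all cells, with means of 0.288 to 8.56 CPM. The part that the counting of shared reads has in these differences was not tested. When mt-Co1 was divided by the 731 start positions of 50-base fragments that are its own, it had 9366 CPM per 1000 such positions, against 7925 for mt-Rnr2, 6045 for mt-Nd1 and 5983 for mt-Cytb. With fragments of 100 bases mt-Co1 had 6846 and mt-Rnr2 8107, so which of these genes stood highest depended on the fragment length, and the read length is not given in the sources used here.

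**Figure D3:**
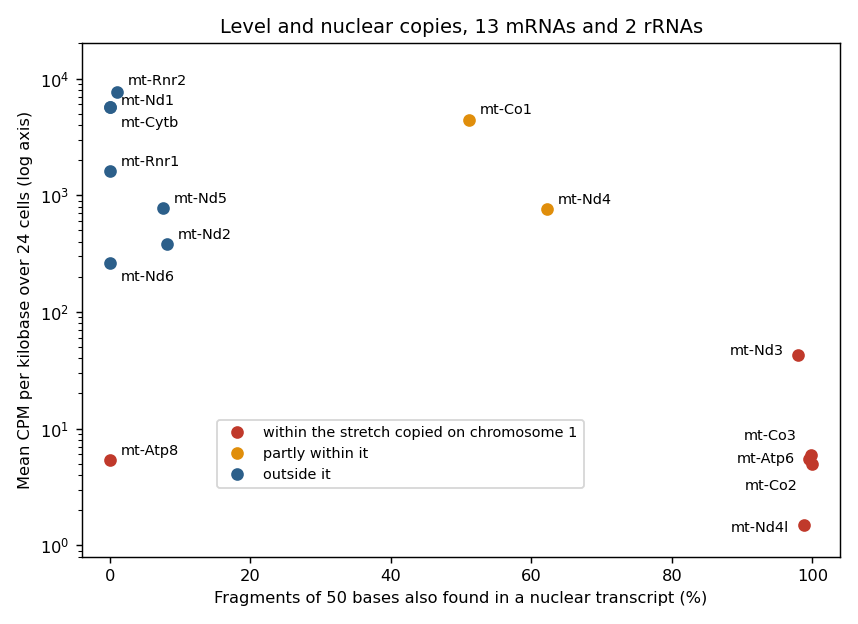
Mean CPM per kilobase over 24 cells on a log axis (vertical) against the percent of 50-base fragments that also occur in an annotated nuclear transcript (horizontal), for the 13 mRNAs and 2 rRNAs. The 5 genes with at least 98.0% shared fragments lie at 1.50 to 42.5 CPM per kilobase, and mt-Atp8 lies at 5.37 with 0% shared. Outside its overlap with mt-Atp6, no nuclear transcript could be compared with mt-Atp8.

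Some members differ in how they end. In mt-Co3, mt-Nd4 and mt-Cytb the annotated gene stops with 1 base left over after whole codons, a T, and the stop codon is completed by the poly(A) tail. Shown are the last 24 bases of these genes (plus strand, GRCm38), with the left-over T in capitals. Beside them is the annotated end of mt-Nd1, a full stop codon in capitals, whose last 2 bases also belong to the tRNA gene mt-Ti.
mt-Co3: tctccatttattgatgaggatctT
mt-Nd4: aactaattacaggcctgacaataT
mt-Cytb: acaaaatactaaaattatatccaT
mt-Nd1: gcgggagtaccaccatacataTAG
Per kilobase mt-Cytb averaged 5727 CPM, mt-Nd4 762, mt-Co3 5.98 and mt-Nd1 5735, and those of mt-Nd4 and mt-Co3 are uncertain because of the nuclear copies. Whether the left-over T bears on the levels was not tested. Runs of A within a gene are another place where oligo-dT can prime. The longest run among the 13 mRNAs and 2 rRNAs had 8 bases and lay in mt-Nd2, and runs of 7 bases lay in mt-Rnr2, mt-Co1, mt-Nd4 and mt-Nd5. Shown are the runs of mt-Nd2 from base 139 and of mt-Rnr2 from base 395 in capitals, with their surroundings.
mt-Nd2: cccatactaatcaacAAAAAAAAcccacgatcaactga
mt-Rnr2: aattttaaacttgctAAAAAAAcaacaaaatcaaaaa
Per kilobase mt-Nd2 averaged 378 CPM. The genes with runs of 7 bases averaged 7599.7 (mt-Rnr2), 4431 (mt-Co1), 769.6 (mt-Nd5) and 762 (mt-Nd4). Whether priming at such runs bears on the levels was not tested.

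The tRNAs were read at low levels, with 56.8 CPM for all 22 together. Transfer RNAs are short and folded and carry no long poly(A) tail, and 4 of them (mt-Ty, mt-Td, mt-Tk and mt-Th) had 0 counts in every cell. Of the 22, 11 were detected in no cell. The exceptions were mt-Tq, for glutamine (chrM:3772-3842), and mt-Tp, for proline (chrM:15356-15422), both on the minus strand and both detected in all 24 cells. The level of mt-Tq was 7.32, 14.9 and 82.1 CPM at the lowest, median and highest, the last in cell 23, and the next highest value was 27.6 CPM in cell 4. That of mt-Tp was 4.96, 18.2 and 33.8 CPM. Per kilobase they averaged 268 and 269 CPM, close to mt-Nd6. Their sequences are shown because these are the only tRNAs with a value in every cell, read 5′ to 3′ on the minus strand of GRCm38.
mt-Tq: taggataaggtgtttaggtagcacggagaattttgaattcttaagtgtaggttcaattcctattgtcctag
mt-Tp: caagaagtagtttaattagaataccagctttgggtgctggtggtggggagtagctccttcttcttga
Without strand, reads of either tRNA and of plus-strand RNA across it cannot be told apart. The next tRNAs were mt-Tt for threonine with 3.84 CPM (detected in 11 cells), mt-Tl1 for leucine with 3.26 (10 cells), mt-Tm for methionine with 2.79 (10 cells) and mt-Tc for cysteine with 2.22 (8 cells). The 5 tRNAs within the copied stretch held 0 to 21 counts each, and the 17 outside it 0 to 649. Like mt-Atp8, these 5 tRNAs had no shared fragment, and they lie opposite gaps between the pseudogene rows, where no nuclear transcript could be compared.

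Taken as parts of the mitochondrial counts of each cell, the rRNAs made up 37.8% ± 4.30, complex I mRNAs 24.3% ± 3.91, the complex IV mRNAs 19% ± 2.94, mt-Cytb 18.7% ± 4.04, tRNAs 0.168% ± 0.0736 and complex V mRNAs 0.0139% ± 0.00524. Both complex V genes lie within the copied stretch, as do mt-Co2 and mt-Co3 of complex IV and mt-Nd3 and mt-Nd4l of complex I. The complex IV part was nearly all mt-Co1, 51.1% of whose 50-base fragments are shared, and mt-Nd4 of complex I is also partly copied. The parts of complexes I, IV and V are therefore uncertain. All parts are shares of the same total, so the others depend on these counts too. Cells 4 and 19 stood farthest from the others in this make-up. In cell 4, mt-Cytb took 35.0% of mitochondrial counts (exact 95% interval 34.5% to 35.5%), against at most 23.7% in any other cell, while mt-Co1 took 11.7% and mt-Rnr2 20.3%, both the lowest of the 24. The level of mt-Cytb in cell 4, 7623 CPM, lay inside the range of the other cells, and those of mt-Rnr2 at 4418, mt-Co1 at 2551 and mt-Nd5 at 402 CPM lay below all of them. Cell 4 also had the lowest share of nuclear rRNA rows, 2.30% of counts, and of ribosomal protein genes, 4.90%. In cell 19, mt-Co1 took 26.2% and mt-Nd1 5.10% of mitochondrial counts, the highest and the lowest of the 24, and the cell had the highest share of nuclear rRNA rows at 7.12%. Cell 19 is also among the 5 cells under 10 CPM of Klf1. The part of these other quantities in the make-up of cells 4 and 19 was not tested.

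Ratios to mt-Cytb show the same spread from cell to cell. The ratio of mt-Rnr2 to mt-Cytb counts was 1.87 ± 0.436 and ran from 0.580 in cell 4 to 2.59 in cell 9, and the lowest outside cell 4 was 1.16 in cell 15. That of mt-Co1 to mt-Cytb was 1.06 ± 0.241, from 0.335 in cell 4 to 1.54 in cell 19, and the lowest outside cell 4 was 0.805. That of mt-Nd1 to mt-Cytb was 0.866 ± 0.247, from 0.300 in cell 19 to 1.28 in cell 17. For the CPM of mt-Nd1, the counting of reads alone gives a coefficient of variation of 1.12%, against 25.2% observed over cells. For the ratio of mt-Nd1 to mt-Cytb, 28.5% was observed. PCR copies are not independent molecules, so this counting error does not cover the technical spread from before sequencing, which was not measured.

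As CPM, the members rose and fell together over cells more than abundant nuclear genes did, while as centred log ratios within the members, which force values to compensate, their mean rho was −0.059. Among the 10 rRNAs and mRNAs detected in all cells, the mean Spearman rho over 45 pairs was 0.325 (median 0.305, range −0.17 to 0.85), and 42 pairs were above 0. Among 242 nuclear genes with at least 500 CPM on average and detected in all cells, the mean over 29161 pairs was 0.0319 (median 0.0330). A rho of 0.5 or more was found in 12 of the 45 pairs of members, or 26.7%, and in 2.64% of the nuclear pairs. All points share the libraries and their depth, so these values are descriptions over 24 cells and the difference was not tested. Within plate columns the mean was 0.311, 0.138 and 0.332, and without the 2 rRNAs it was 0.236.

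The tightest pairs joined the rRNAs with each other, with mt-Co1 and with mt-Nd5. The pair mt-Rnr1 and mt-Co1 had a rho of 0.85, mt-Rnr1 and mt-Rnr2 0.82, mt-Rnr2 and mt-Nd5 0.78, and mt-Rnr2 and mt-Co1 0.75. Against the summed counts of all other members, mt-Rnr1 had a rho of 0.84, mt-Co1 0.76, mt-Rnr2 0.76, mt-Nd4 0.75, mt-Nd5 0.69 and mt-Cytb 0.59. Genes annotated on the minus strand had a rho of 0.37 for mt-Nd6, −0.13 for mt-Tq and −0.27 for mt-Tp, but the reads carry no strand. Counts over all cells were only 643 for mt-Tq and 649 for mt-Tp. The low end of the mRNAs lay on the plus strand, with mt-Nd1 at 0.14 and mt-Nd2 at 0.19. This was so although mt-Nd1 is adjacent to the tRNA that follows mt-Rnr2. That value of mt-Nd1 rested on few cells: without the 5 cells under 10 CPM of Klf1 it was 0.51, and leaving out any single cell gave 0.045 to 0.29. In those 5 cells mt-Nd1 stood at 3985, 4123, 2513, 4628 and 5399 CPM, while it ran from 3575 to 8488 CPM in the other 19. For mt-Nd3, rho was 0.39 over all cells and 0.63 without the 5.

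**Figure D4:**
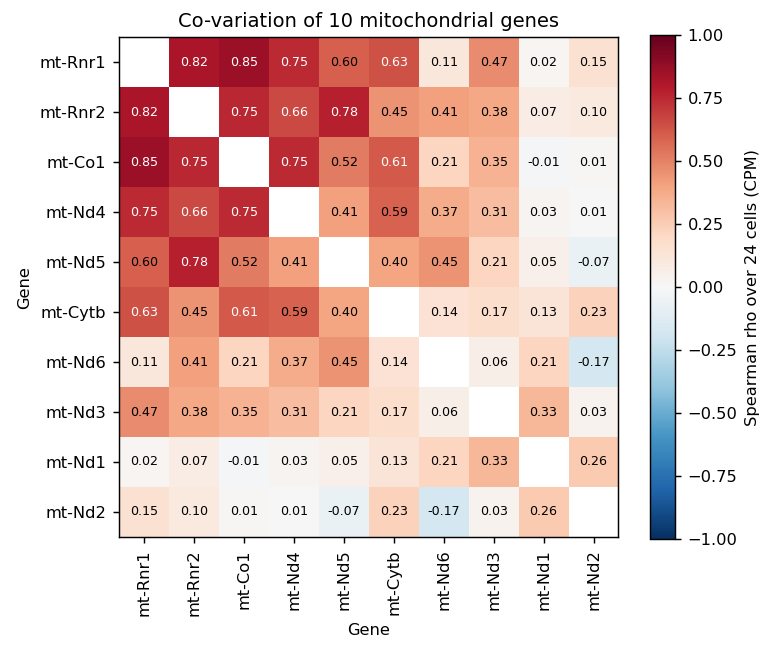
Spearman rho over 24 cells (colour, with the value printed) between the CPM of each pair of the 10 mitochondrial rRNAs and mRNAs detected in all cells (both axes). The block from mt-Rnr1 to mt-Cytb holds values from 0.40 to 0.85, while mt-Nd1 and mt-Nd2 lie between −0.17 and 0.33 with every other gene.

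The mitochondrial share was set against 15 other quantities over the 24 cells. Cells with fewer counts had a higher share: rho with total counts was −0.48 (Pearson r −0.51), and −0.41 (r −0.47) without cells 4 and 19, which lie farthest from the median share. Within plate columns it was −0.50, −0.21 and −0.50. With the number of genes detected, rho was −0.53 (r −0.50), and −0.45, −0.071 and −0.60 within plate columns. With the share of nuclear rRNA rows in nuclear counts it was 0.40 (r 0.61), and with that of ribosomal protein genes 0.41 (r 0.57). Without cells 4 and 19, r was 0.29 for the rRNA rows and 0.40 for the ribosomal protein genes. Within plate columns, rho was 0.64, −0.21 and 0.48 for the rRNA rows and 0.43, −0.36 and 0.90 for the ribosomal protein genes, so the sign turned in plate column 2. The mitochondrial share was thus higher where depth was lower, and the part of depth in the relations below was not tested.

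Levels of nuclear subunits were read beside those of their mitochondrial partners. Nuclear gene length is the union of exons over all isoforms, which can exceed any single transcript, so the sides are unlike measures. For complex I the 7 mitochondrial genes had a median of 378 CPM per kilobase (1.50 to 5735), and the 36 nuclear subunits a median of 150.2 (16.5 to 524, highest in Ndufa2). For complex III mt-Cytb had 5727 CPM per kilobase and the 9 nuclear subunits a median of 237, with Uqcr11, a small subunit, highest at 674. For complex IV the 3 mitochondrial genes had 4.93 to 4431 and the 11 nuclear subunits a median of 396, with Cox8a highest at 1213. For complex V the 2 mitochondrial genes had 5.37 and 5.47, and the 16 nuclear genes a median of 208, with the catalytic subunit Atp5b highest at 751. By this measure mt-Cytb and mt-Co1 stood above the highest nuclear subunit of their complexes, while both complex V genes lay below the lowest nuclear gene at 5.69. Both complex V genes lie within the copied stretch, with 133 counts for mt-Atp6 and 43 for mt-Atp8 over all cells, so their values are uncertain. So are those of mt-Nd3, mt-Nd4l, mt-Co2 and mt-Co3 within the stretch, and of mt-Nd4 and mt-Co1 partly within it. Over cells, the summed CPM of the mitochondrial genes had a rho of 0.29 with their nuclear partners in complex I, −0.41 in complex III, −0.059 in complex IV and 0.21 in complex V.

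Against the mitochondrial share, the summed nuclear subunits of all complexes had a rho of −0.12, and the values within plate columns went both ways (−0.81, −0.048 and 0.40). By complex, rho was −0.10 for complex I, −0.16 for complex II, which has no mitochondrially encoded subunit, −0.53 for complex III, −0.15 for complex IV and 0.21 for complex V. The value of complex III was −0.88, 0.14 and −0.55 within plate columns and −0.38 without cells 4 and 19. Without the 5 cells under 10 CPM of Klf1, that of complex I was 0.27 and that of complex V 0.52. The leading nuclear subunits by CPM were Ndufb9 (406 ± 125) and Ndufv2 (400.2 ± 128) for complex I, and Sdha (658 ± 257), Sdhd (656 ± 261) and Sdhb (489.7 ± 156) for complex II. They were Uqcrc1 (927 ± 410.2), Cyc1 (494 ± 186) and Uqcr11 (432 ± 143) for complex III, and Cox4i1 (1153 ± 156), Cox8a (751 ± 183) and Cox6b1 (689 ± 191) for complex IV. For complex V they were Atp5b (3181 ± 736), Atp5a1 (1686 ± 374) and the inhibitor Atpif1 (898 ± 352).

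Nuclear genes that copy, transcribe and process mitochondrial RNA were modest in level, and their sums leaned against the share. The 13 genes of mitochondrial DNA replication and upkeep were led by the single-strand binding protein Ssbp1 at 211 ± 84.6 CPM, the DNA packaging and transcription factor Tfam at 112 ± 97.1 and the nuclease Mgme1 at 81.8 ± 53.4, and their sum had a rho of −0.24 with the share. The 7 transcription genes were led by Mrpl12 at 444 ± 215, then Tfam, and the RNA polymerase Polrmt at 67.1 ± 83.5, with a rho of −0.48. Mrpl12 held 444 of the 730 CPM of this list, and its own rho was −0.599. The other genes of this list detected in at least 12 cells had rhos of −0.20 to −0.0096, so the sum largely followed Mrpl12. The 34 genes of RNA processing, modification and decay were led by Hsd17b10 (204 ± 89.8), a part of the enzyme that cuts tRNA 5′ ends, Rexo2 (172 ± 102) and Grsf1 (138 ± 97.6), with a rho of −0.50. The 10 regulators of biogenesis were led by Myc (845 ± 447), Nrf1 (141 ± 106) and Pprc1 (67.4 ± 53.0), with a rho of −0.31, and Ppargc1a had 0 counts in every cell. The 29 assembly and translation factors were led by the elongation factor Tufm (187 ± 93.3), Cox14 (139.8 ± 86.1) and Tmem70 (138 ± 74.5), with a rho of −0.50. Without the 5 cells under 10 CPM of Klf1 these sums had a rho of −0.19, −0.41, −0.33, −0.075 and −0.48 in the same order. Without cells 4 and 19 the values were −0.19, −0.44, −0.37, −0.29 and −0.44. Within plate columns they ran from −0.55 to 0, −0.69 to −0.33, −0.86 to −0.26, −0.50 to −0.31 and −0.62 to −0.29. Myc held 845 of the 1213 CPM of the regulators of biogenesis. Single genes of these lists had median rhos of −0.11 to −0.20, beside −0.057 over all nuclear genes compared.

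Gene by gene, 5947 nuclear genes detected in at least 12 cells were compared with the share, each scaled to nuclear counts. An absolute rho of 0.6 or more was found for 46 genes, or 0.773%. Of these, 11 rose with the share (0.185%) and 35 ran against it (0.589%). Of the 145 genes of the nuclear mitochondrial lists that were detected in at least 12 cells, 2 passed this size (1.38%), Uqcr11 at −0.61 and the copper chaperone of complex IV, Sco1, at −0.68. A rho above 0 was found for 49 of the 145, or 33.8%, and for 41.1% of all genes compared. Leaving out a single cell gave 35 (without cell 19) to 73 genes (without cell 11), and leaving out the 5 cells under 10 CPM of Klf1 gave 74, of which 26 were among the 46.

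The lowest value belonged to E2f4, a transcription factor of the E2F family that represses cell cycle genes and is needed for fetal red cell production in mice. Its level was 191 ± 117 CPM, from 0 to 424 CPM, and it was detected in 23 cells. Its rho with the share was −0.84 (r −0.79), with −0.81, −0.93 and −0.81 within plate columns, −0.86 to −0.83 leaving out any single cell, and −0.86 without the 5 cells under 10 CPM of Klf1. As the lowest of 5947 values, it was bound to be far out, and it is a description of these cells. Next came Asns, the asparagine synthetase, at −0.71 (284 ± 268 CPM), the aminoacylase Acy1 at −0.71 (52.6 ± 62.5), the kinase Cdk12 at −0.70 (17.8 ± 33.5) and Sssca1 at −0.68 (124 ± 74.0). At the upper end stood Kin at 0.70 (54.7 ± 57.0 CPM), the ubiquitin-conjugating enzyme Ube2r2 at 0.70 (32.5 ± 42.8), the lipase Lipe at 0.68 (13.8 ± 24.5), the haematopoietic signalling adaptor Hcls1 at 0.68 (78.0 ± 69.5) and Cd47, the surface signal against phagocytosis, at 0.67 (618 ± 391). For Lipe, Pearson r was 0.24, so its order over cells followed the share and its size did not. Acy1 was detected in 13 cells, Cdk12 in 14, Ube2r2 in 15, Kin and Lipe in 17, and Asns and Hcls1 in 19. For these genes part of the order over cells rests on cells with few or no counts. Ube2r2 had a rho of 0.24 in plate column 1, and 0.58 without the 5 cells under 10 CPM of Klf1. The erythroid factor Klf1 had a rho of −0.51 with the share, and −0.54 without the 5 cells in which it was under 10 CPM.

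**Figure D5:**
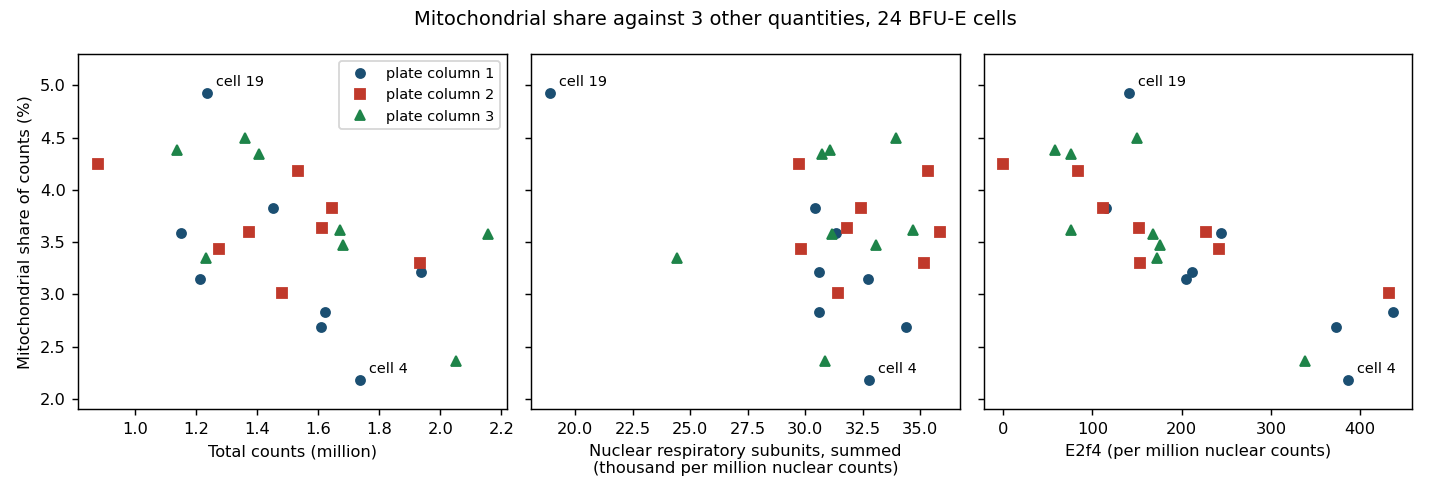
Mitochondrial share of counts in percent (vertical) against total counts, the summed level of nuclear respiratory subunits and E2f4, both scaled to nuclear counts (horizontal, left to right), with a point for each of the 24 cells and a symbol for its plate column. The share falls from left to right in the panels of total counts (rho −0.48) and E2f4 (rho −0.84) and has no clear course in the panel of nuclear subunits (rho −0.12).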

How the data were processed

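The deposited table holds read counts per Ensembl mouse gene in 24 cells, as the authors deposited them, with no other scaling. The submitters' processing notes name STAR 2.4, featureCounts and GRCm38. Counting options, read length, annotation release and the handling of reads that match several places are not given in the sources used. Of 49585 identifiers, 49326 matched a symbol in GENCODE M21, also on GRCm38, which gave coordinates and transcripts. Counts were scaled to CPM over all rows. Nuclear genes set against the share were scaled over nuclear rows. Exact fragments of 50 and 100 bases of each member were looked up on both strands of the annotated nuclear transcripts, since no whole genome was used, and copies were aligned with Biopython 1.88. Tables were computed with Python 3.11.15, numpy 2.4.6, pandas 2.3.3 and SciPy 1.17.1, and the correlations were tested on simulated counts. Nuclear gene length is the union of exons over all isoforms. Cells are technical units of 1 group, so no test between groups was made. The members and lists were chosen with earlier results of these data known. Named were all members, the 3 highest genes of each nuclear list, list genes past an absolute rho of 0.6, the 5 protein-coding genes at each end outside the lists, and nuclear copies with 5 counts in at least 12 cells. Other nuclear copies were named after their values were seen, as partners of a member. A name that falls under this rule is not reported here.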

Additional observations from a re-analysis of the deposited data

How the results depend on the processing

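The share of 3.55% was 2.20% without the 2 rRNAs. The median level of the 13 mRNAs and 2 rRNAs was 378 CPM per kilobase, and it was 1891 and 1940.2 when divided by start positions of 50 or 100 bases that are a gene's own, because genes with under 100 such positions dropped out. The 15 members detected in at least 12 cells became 25 at a limit of 1 count. The mean rho between members, 0.325, turned to −0.059 for centred log ratios within the members, which forces values to compensate, and ran from 0.291 to 0.345 leaving out each cell. The rho of the share with total counts, −0.48, was −0.41 without cells 4 and 19 and −0.21 within plate column 2; the cause was not tested. The 46 genes past an absolute rho of 0.6 became 13 of 1219 genes detected in all cells, where fewer genes were compared, 91 by Pearson r of log2(CPM + 1), 74 without the 5 cells under 10 CPM of Klf1 and 35 to 73 leaving out each cell. The other 26 values from whole-set alternatives moved by less than the spread over cells, pairs or single cells left out, or by less than 1.5 times for counts. Among the other quantities set against the share, 41 values moved outside the range seen when single cells were left out and 28 did not. Chosen after seeing the data were the nuclear copy rows added to the make-up of mitochondrial counts, size factors, nuclear scaling and leaving out the rRNAs for the mean rho between members, and every setting that leaves out single cells or the 5 cells. Copies were looked for in annotated transcripts in place of a genome. No paired analysis was possible because there is 1 group.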
